A study of Rattus norvegicus with 8 samples.

Results

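The lungs of rats kept for 6 h in hypobaric hypoxia, the thin air of a simulated altitude of 30000 ft, were measured on 2 of the 8 two-colour arrays of a time course, picked by the duration given in the labels. On 1 array the hypoxic RNA came from rats given cobalt (12.5 mg per kg) on 7 days before the exposure, and on the other from rats given normal saline over the same number of days. The second channel of each array held lung RNA of rats of the same pretreatment with no hypoxia (0 h), so that every value below is a log2 ratio of 6 h hypoxia over 0 h unless stated otherwise. The other 6 arrays held 12, 24 and 48 h of hypoxia after cobalt or saline, against the same 0 h RNA, so each group had 1 array. The strain, sex and age of the rats and the number of animals behind each RNA were not given in the sources used here. Hypoxic RNA was labelled with Cy3 on the cobalt arrays, which share a slide, and with Cy5 on the saline arrays, which share another. The effects of pretreatment, slide, scan and dye hence cannot be told apart. Both 6 h arrays took the first position of their slide, so that 6 h and slide position cannot be told apart either.

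When oxygen falls, the prolyl hydroxylases that mark the alpha subunits of hypoxia-inducible factors (HIF) for destruction slow down, and HIF dimers switch on genes of glycolysis, red cell supply and vascular tone. Cobalt blocks the same hydroxylases and also binds metal-responsive proteins. An animal moved to high altitude meets a stress response as well, in which glucocorticoids from the adrenal gland and acute phase cytokines act on the lung within hours.

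On the 2 arrays of 6 h, the share of spots well above background was 59.5% in the green and 65.2% in the red channel after cobalt, and 62.8% and 69.1% after saline; over all 8 arrays these shares ran between 57.7% and 67.2% in green and between 63.5% and 72.7% in red. Of 26 genes that mark lung cell types, 25 were detected in the hypoxia channel of both 6 h arrays, and Marco of alveolar macrophages was not. After filtering, 24118 genes were tested, 12752 of them with a gene symbol. The ratios of the cobalt and the saline 6 h arrays correlated across these genes at Pearson 0.27 and Spearman 0.15, a description over genes, which are no independent replicates. The sign was the same on both arrays for 53.7% of genes, with 27.5% positive and 26.1% negative on both; with median centring in place of loess 26% shared a sign.

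The level of a single array depends on how its dyes are balanced. This is done here by loess, which removes the trend of the ratio with intensity and so leaves the middle of each array near 0. With median centring in its place, the median over all genes was -0.45 on the cobalt 6 h array and 0.33 on the saline 6 h array. With the same centring, the glycolysis list stood at -0.31 on the cobalt array and 1.73 on the saline array, the HIF target list at -0.21 and 1.02, the clock list at -0.53 and 0.87, the matrix list at -0.59 and 0.62, and the heat shock and unfolded protein list at -0.61 and 1.43. These values include the shift of all genes. Of 37 lists, 19 had a median that turned sign on at least 1 of these arrays, 11 on the cobalt and 12 on the saline array. Among the lists described below, the glycolysis, HIF target, heat shock, ion transport, antioxidant and macrophage lists turned on the cobalt array, the cytokine, endothelial, vasoactive, type I and cell cycle lists on the saline array, and the matrix, surfactant and HIF subunit lists on both. The glucocorticoid-induced list (0.24 and 1.45), the acute phase list (0.93 and 1.69), the smooth muscle list (0.34 and 1.96) and the interferon-stimulated list (-1.27 and -0.35) kept 1 sign on both.

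At 6 h, 1871 genes differed from 0 h in the average of both pretreatments (limma, Benjamini-Hochberg adjusted p under 0.05, 7.76% of those tested). Of these, 989 were higher (4.1%) and 882 lower (3.66%), and 97.9% had 1 sign on both 6 h arrays. Calling on the average of both arrays favours a shared sign, so that share is no separate check. The same fit called 923 genes at 12 h (3.83%, of which 1.86% higher and 1.97% lower), 333 at 24 h (1.38%, of which 0.767% higher and 0.614% lower) and 362 at 48 h (1.5%, of which 0.78% higher and 0.721% lower). The number at 6 h rests on how the difference between the slides is treated. With pretreatment as a fixed term it was 1871, with the slide as a random block 80 (55 higher and 25 lower), with the pretreatment term left out 36, and from the 2 arrays of 6 h alone 113. It was 99 without the cobalt 6 h array, 57 without the saline 6 h array, 767 without the cobalt 48 h array and 740 without the saline 48 h array. No p-value includes the spread of the 0 h RNA, since the labels name 1 such RNA per pretreatment. Nothing in the labels tells whether arrays came from different rats. In the fit reported, the pretreatment term takes up the mean slide difference, so a p-value rests on how that difference varies over durations. It does not measure the full spread between the 2 arrays of 6 h.

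Taken by size alone, 135 genes had a log2 ratio of at least 1 on both 6 h arrays (0.56% of genes) and 94 a ratio of -1 or less on both (0.39%). The averages of the first set ran between 1.05 and 3.41 with a median of 1.58, and those of the second between -3.05 and -1.06 with a median of -1.44. A further 32 genes passed that size with opposite signs (0.133%), 20 of them higher after cobalt and lower after saline (0.0829%) and 12 the reverse (0.0498%). On the cobalt array, 415 genes reached 1 (1.72%) and 287 reached -1 (1.19%). The saline array had 597 (2.48%) and 613 (2.54%).

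**Figure D1:**
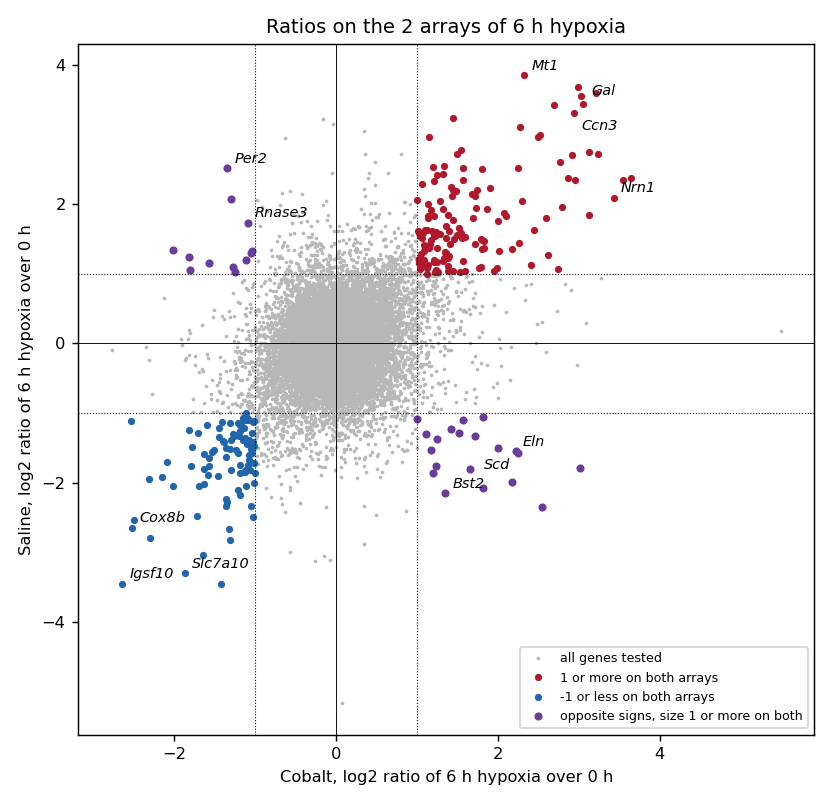
Log2 ratio of 6 h hypoxia over 0 h on the cobalt array (horizontal axis) and on the saline array (vertical axis) for the 24118 genes tested, 1 point per gene, with dotted lines at 1 and -1. The 135 red genes lie at 1 or more on both arrays, the 94 blue genes at -1 or less on both, and the 32 purple genes past that size with opposite signs.

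The largest increase among genes with a symbol measured in all 4 channels was that of galanin (Gal), a neuropeptide of sensory and autonomic nerves, with ratios of 3.05 after cobalt and 3.45 after saline. Its average was 3.25 ± 0.12 (SE throughout), or 9.5-fold, with an adjusted p of 0.000161. Ccn3, a matricellular protein, had 2.94 after cobalt and 3.31 after saline (8.72-fold). Both genes were higher at 6 h by more than the spread between arrays, and Ccn3 was nearly as high on the later arrays, where its ratios ran between 2.23 and 3.15. Mt1, the metal-binding metallothionein 1, had 2.33 after cobalt and 3.85 after saline (3.09 ± 0.37). Lox, which cross-links collagen and elastin, had 3.24 after cobalt and 2.72 after saline (2.98 ± 0.10, adjusted p = 0.000101).

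Osteopontin (Spp1), a matrix and cytokine-like protein, had 3.55 after cobalt and 2.35 after saline, and the protease inhibitor Serpina3n 2.92 and 2.71. The neurite-promoting protein Nrn1 had 3.43 after cobalt and 2.09 after saline. The kininogens, from which bradykinin is cut, were both in this set, with Kng1 at 2.49 after cobalt and 2.97 after saline and Kng2 at 2.27 and 3.11. Their coding sequences are close, and probes may share signal between them. The activin antagonist Fst had 2.77 after cobalt and 2.60 after saline, and the serum amyloid Saa4 2.96 and 2.34. The probes of Saa4 disagreed, with averages between 0.9 and 2.65. For Spp1, Serpina3n, Nrn1, Kng1, Kng2, Fst and Saa4, 6 h was the highest array in 1 pretreatment only. In the other a later array stood higher, as for Spp1 after saline with 3.17 at 12 h and 3.23 at 48 h.

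The deepest decrease was that of Igsf10, an immunoglobulin superfamily gene, with -2.64 after cobalt and -3.45 after saline (-3.05 ± 0.27, 8.27-fold lower, adjusted p = 0.00423). Hsd11b2, the enzyme that inactivates corticosterone in the rat, had -1.65 after cobalt and -3.04 after saline (-2.35 ± 0.24). Both genes were lower at 6 h in both pretreatments. The neurturin receptor Gfra2 had -1.72 after cobalt and -2.48 after saline (-2.10 ± 0.11), and the homeobox gene Meox2 of mesenchyme and vessels -1.69 and -2.05 (-1.87 ± 0.14).

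Also among the lowest were Lrrn3 (-2.55), the calcium sensor Vsnl1 (-2.51), the keratin Krt76 (-2.13), the lipase inhibitor G0s2 (-2.07), Mamdc2 (-2.03), the amino acid transporter Slc7a10 (-2.58) and the cytochrome oxidase subunit Cox8b (-2.58), given as averages of both arrays. The 3 probes of Cox8b disagreed, from -2.58 to -0.07. A later array was lower than that of 6 h after saline for Vsnl1, Krt76 and Mamdc2, and in both pretreatments for Cox8b and Slc7a10. For Lrrn3 and G0s2, 6 h was the lowest in both. Of the 22 genes named in these paragraphs, 10 also passed with the slide as a random block, namely Gal, Ccn3, Lox, Kng1, Fst, Igsf10, Lrrn3, Hsd11b2, Gfra2 and Meox2. Without the cobalt 6 h array 8 of the 22 passed, without the saline 6 h array 5, and without the cobalt 48 h or the saline 48 h array 20, Slc7a10 and G0s2 being lost. Each of the 22 kept its sign on both 6 h arrays with the software's own log ratio and with median centring in place of loess.

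**Figure D2:**
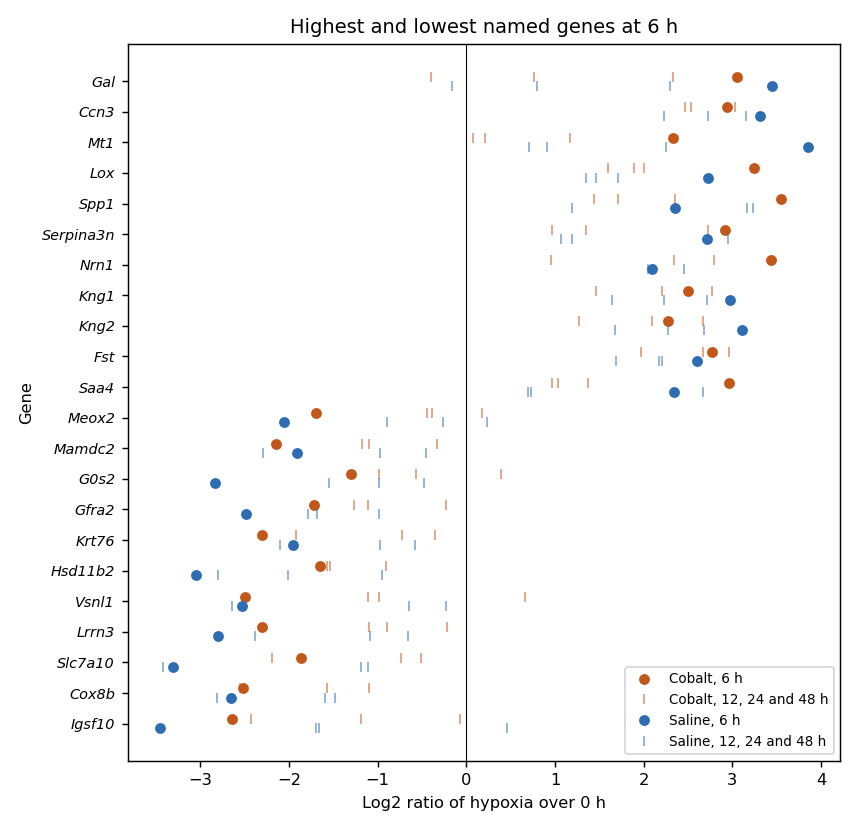
Log2 ratio of hypoxia over 0 h (horizontal axis) for the 22 highest and lowest genes named at 6 h (vertical axis), with dots for the cobalt and saline 6 h arrays and ticks for the arrays of 12, 24 and 48 h. Both dots of a gene lie on the same side of 0, as the choice of these genes required. The dots run from 3.85 for Mt1 after saline to -3.45 for Igsf10 after saline. The ticks of Ccn3 lie close to its dots, while those of Gal and Igsf10 reach 0.

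Some genes were measured in 1 channel only, so that their ratio is a bound. Reg3b, a secreted lectin of epithelia, was at least 2.13-fold higher at 6 h but did not pass (adjusted p = 0.322). The lectin receptor Clec4m was at least 2.1-fold higher (adjusted p = 0.00907) and thrombospondin Thbs1 at least 1.85-fold (adjusted p = 0.00682), their 0 h signals not being well above background on either array. Among genes whose hypoxia signal was not well above background, Slitrk6 was at least 2.26-fold lower (adjusted p = 0.00287), Cpne4 at least 1.81-fold and Lrrc17 at least 1.77-fold. With the slide as a random block Slitrk6 still passed, and Clec4m (adjusted p = 0.0584), Thbs1 (adjusted p = 0.0584), Cpne4 (adjusted p = 0.0584) and Lrrc17 (adjusted p = 0.0862) did not. Those 4 were also lost without the saline 6 h array, with adjusted p between 0.0539 and 0.144, and all of them but Thbs1 without the cobalt 6 h array, with adjusted p between 0.0672 and 0.0899. These bounds rest on channel levels, which stay open to dye bias.

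Genes of glucose uptake and glycolysis were higher at 6 h. Of 21 measured, 13 rose, 1 fell and 7 did not pass, where 4.1% of all genes rose and 3.66% fell. The median was 0.76 against 0.0052 for all genes tested. Positive ratios on both arrays were found for 18 of the 21 (27.5% over all genes). With median centring 7 of 21 were positive on both arrays, where 3172 of 24118 genes were. The lactate exporter Slc16a3 had 2.17 after cobalt and 1.36 after saline (1.77 ± 0.41, adjusted p = 0.048). The liver-type phosphofructokinase Pfkl had 1.17 and 1.49, and the glucose transporter Slc2a1 1.38 and 1.23 (1.30 ± 0.20, adjusted p = 0.016). The rise ran along the pathway, with aldolase Aldoa at 1.06, triosephosphate isomerase Tpi1 at 1.04, Gapdh at 0.93, enolase Eno1 at 0.89, pyruvate kinase Pkm at 0.82 and lactate dehydrogenase Ldha at 0.88 as averages of both arrays. The muscle-type phosphofructokinase Pfkm was the 1 member that fell, with -1.17 after cobalt and -1.0 after saline. Most adjusted p-values were close to the threshold. No member passed with the slide as a random block, and the number that rose was 4 without the cobalt 48 h or the saline 48 h array, 2 without the cobalt 6 h array and 0 without the saline 6 h array. The medians of this list at 12, 24 and 48 h were 0.47, 0.55 and 0.38.

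Of 39 HIF target genes measured, 11 rose, 1 fell (4.1% and 3.66% over all genes) and 27 did not pass. The median was 0.36. Bnip3, which directs mitochondria to autophagy, had 1.42 after cobalt and 2.25 after saline (1.83 ± 0.14, adjusted p = 0.00306), and it was 1 of 2 members that passed with the slide as a random block. The collagen hydroxylases P4ha2 (1.29) and Plod2 (1.45), the transferrin receptor Tfrc (0.85) and the haem oxygenase Hmox1 (1.15) were higher as averages of both arrays. The vascular growth factor Vegfa went the other way, with -0.07 after cobalt and -1.41 after saline (-0.74 ± 0.15, adjusted p = 0.0323). Adrenomedullin (Adm), a vasodilator peptide, had 1.95 after cobalt and 0.55 after saline without passing (adjusted p = 0.0944), and the angiopoietin-like Angptl4 0.77 and 1.66 (adjusted p = 0.115). The number that rose was 7 without the cobalt 48 h or the saline 48 h array and 1 without either 6 h array. Of the HIF subunits and hydroxylases, 1 of 12 passed, where 7.76% of all genes did. It was the HIF-2 alpha gene Epas1, which had -0.29 after cobalt and -1.66 after saline and was lost with the slide as a random block (adjusted p = 0.369) and without either 6 h array. Hif1a had 0.39 and 0.18 and the hydroxylase Egln3 0.05 and 0.51, neither past the test.

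The promoters of Bnip3, Ldha and Slc2a1 are shown because these genes rose on both arrays and hold several copies of the core of the element that HIF binds. Each line gives the 250 bases before the start of the gene from RefSeq (assembly GRCr8), 5′ to 3′ on the strand of the gene, with matches to ACGTG or GCGTG on either strand in capitals.
Bnip3 (chr1:203154963-203155212, minus strand): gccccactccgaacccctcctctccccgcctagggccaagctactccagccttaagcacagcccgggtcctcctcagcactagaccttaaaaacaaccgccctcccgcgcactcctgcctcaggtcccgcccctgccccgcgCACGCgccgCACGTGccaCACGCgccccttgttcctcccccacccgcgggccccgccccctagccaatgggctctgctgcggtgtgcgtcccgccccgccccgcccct
Ldha (chr1:106507842-106508091, plus strand): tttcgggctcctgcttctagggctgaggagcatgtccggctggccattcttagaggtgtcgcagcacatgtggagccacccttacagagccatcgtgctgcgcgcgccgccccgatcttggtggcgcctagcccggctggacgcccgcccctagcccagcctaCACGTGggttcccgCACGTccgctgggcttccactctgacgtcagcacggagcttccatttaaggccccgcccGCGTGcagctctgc
Slc2a1 (chr5:138002272-138002521, plus strand): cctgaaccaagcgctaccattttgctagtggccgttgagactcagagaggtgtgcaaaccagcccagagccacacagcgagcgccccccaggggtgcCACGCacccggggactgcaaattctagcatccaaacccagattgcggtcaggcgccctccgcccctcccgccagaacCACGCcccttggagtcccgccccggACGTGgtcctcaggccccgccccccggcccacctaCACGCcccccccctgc
Each holds 4 matches, between 90 and 108 bases before the start in Bnip3, between 14 and 87 in Ldha and between 16 and 153 in Slc2a1. In Bnip3 and Ldha, CACGTG reads as a match on both strands and was counted as 2 overlapping ones. Of 27457 rat promoters of the same length, 37.9% hold at least 1 match and 5.79% hold CACGTG. The share with at least 1 match was 12 of 20 promoters in the glycolysis list, or 60%, and 25 of 35 in the HIF list, or 71.4%. It was not particular to these lists, with 10 of 16 promoters in the clock list, or 62.5%, and 7 of 11 in the metal handling list, or 63.6%. A match is a stretch of letters and does not show that a factor binds there.

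Mt1 was the third highest of the genes named at 6 h, and its ratios were lower on every later array, with 0.21 after cobalt and 2.25 after saline at 12 h, 1.17 and 0.70 at 24 h, and 0.07 and 0.91 at 48 h. Metallothioneins hold zinc and copper and are switched on by metal, by glucocorticoids and by hypoxia. The promoter of Mt1 (chr19:10832976-10833225, minus strand), from the same source, is shown because it is dense in the core of the metal response element, TGCACNC or TGCGCNC, in capitals on either strand.
Mt1: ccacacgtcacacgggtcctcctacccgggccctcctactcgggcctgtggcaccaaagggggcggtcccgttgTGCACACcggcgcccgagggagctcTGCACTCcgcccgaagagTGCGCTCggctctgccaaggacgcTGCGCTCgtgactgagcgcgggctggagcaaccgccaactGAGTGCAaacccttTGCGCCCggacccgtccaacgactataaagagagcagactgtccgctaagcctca
It holds 6 matches, between 55 and 176 bases before the start, and 21.2% of the 27457 promoters hold at least 1. As few as 6 promoters, or 0.0219%, hold 6 or more. Of 15 measured genes of metal handling, 3 rose (Mt1, Tfrc and Hmox1), where 4.1% of all genes did. The other 12 did not pass, and the median was 0.21. The iron hormone hepcidin (Hamp) had 1.56 after cobalt and 1.51 after saline, just short of the threshold (adjusted p = 0.0509). No member passed with the slide as a random block, without the cobalt 6 h array or without the saline 6 h array.

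Genes induced by glucocorticoids were higher at 6 h. Of 19 measured, 11 rose, 0 fell (4.1% and 3.66% over all genes) and 8 did not pass. The median was 0.91. Fkbp5, which dampens the hormone's receptor as a co-chaperone, had 1.45 after cobalt and 3.24 after saline (2.34 ± 0.38, adjusted p = 0.0181), and its probes ran between 1.53 and 2.34. The kinase Map3k6 had 1.80 and 2.50 (2.15 ± 0.24). The cell cycle inhibitor Cdkn1a had 1.68 and 2.15 (1.92 ± 0.15), with its second probe at 0.47. All 3 genes were positive on both arrays, as were the other 8 that rose, among them the salt-transport kinase Sgk1 (1.28), the transcription factors Zbtb16 (1.12), Cebpd (1.28) and Klf9 (0.95), the receptor inhibitor Errfi1 (1.12), glutamine synthetase Glul (0.91), the repressor Nfil3 (1.09) and the clock gene Per1 (0.88), given as averages. Cebpd was saturated on a 6 h array, and the 0 h signal of Zbtb16 was not well above background on the saline array. Of the members that did not pass, Tsc22d3 had -0.17 after cobalt and 1.1 after saline, Dusp1 0.15 and -1.18, and Lcn2 0.00 and -1.26.

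The list medians of the same genes were -0.008 at 12 h, 0.04 at 24 h and -0.15 at 48 h, and 13 of the 19 stood above all 3 later arrays at 6 h in both pretreatments. Over all genes tested, 11.9% did so. Fkbp5 had 0.05 after cobalt and 2.32 after saline at 12 h, so the saline array of 12 h was still high for this gene. Errfi1 lay between -0.41 and 0.24 on the later arrays. Sgk1 differed from the others, with ratios between 0.57 and 2.09 on the later arrays. With the slide as a random block 1 of the 11 passed, Cdkn1a, without the cobalt 6 h array 1 and without the saline 6 h array 0. The number that rose was 9 or 11 without any 1 of the other arrays. Hsd11b2, named above among the lowest genes, inactivates the hormone of this pathway. Hormone levels were not measured.

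Acute phase genes, which cytokines and glucocorticoids induce in liver and in epithelia, were higher as well. Of 17 measured, 8 rose (4.1% over all genes) and 9 did not pass, with a median of 1.00. Positive ratios on both arrays were found for 15 of them (27.5% over all genes), and for 11 of 17 with median centring. The orosomucoid Orm1 had 1.79 after cobalt and 1.5 after saline, against 0.01 and 0.05 at 48 h, although its 0 h signal was not well above background on the saline array. Haptoglobin (Hp), which binds free haemoglobin, had 1.90 and 2.23 (2.07 ± 0.29). Both arrays were high for these genes, and Orm1 and Kng1 passed with the slide as a random block. The protease inhibitor A2m had 2.07 after cobalt and 1.87 after saline and did not pass (adjusted p = 0.209), with ratios between 0.04 and 4.11 on the later arrays. The fibrinogen chain Fgb had 2.49 after cobalt and 0.28 after saline (adjusted p = 0.085). Without the cobalt 6 h array 1 member rose and without the saline 6 h array 2.

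**Figure D3:**
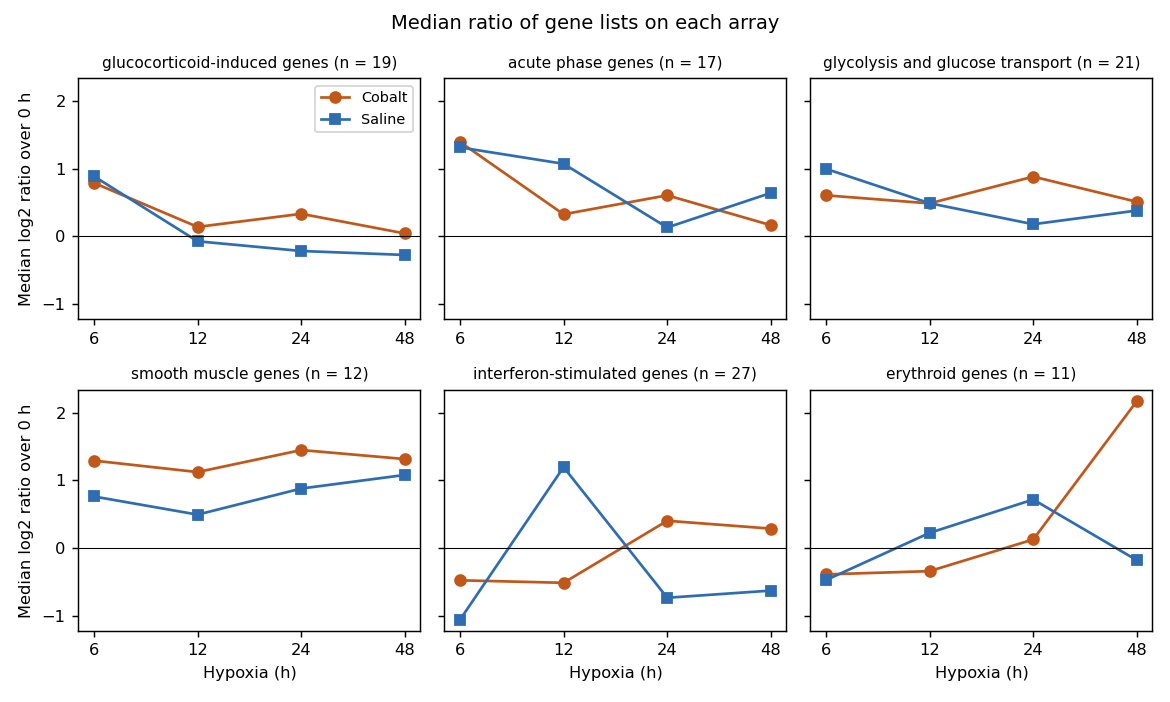
Median log2 ratio of hypoxia over 0 h of 6 gene lists (vertical axis) at 6, 12, 24 and 48 h of hypoxia (horizontal axis), with cobalt and saline arrays as separate lines and the number of genes tested in each title. The glucocorticoid-induced list has its highest points at 6 h, 0.79 after cobalt and 0.89 after saline, and the interferon-stimulated list lies below 0 on both 6 h arrays, at -0.48 and -1.06.

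Immediate early genes, the first transcription factors to answer a stimulus, had 10 of 30 members that rose, 0 that fell and 20 that did not pass. Over all genes, 4.1% rose and 3.66% fell. The list median was 0.28, with 0.637 on the cobalt array and 0.135 on the saline array. Among the 30 genes, 12 were positive after cobalt and negative after saline (21.2% over all genes). The nuclear receptor Nr4a3 had 1.87 after cobalt and 1.94 after saline (1.90 ± 0.24), and Myc, a driver of growth, had 1.16 and 0.99 (1.07 ± 0.10, adjusted p = 0.00478). The stress gene Gadd45g had 1.60 and 1.04. The AP-1 gene Junb had 1.70 after cobalt and 0.54 after saline. Fos, with 0.64 after cobalt and -0.76 after saline, and Egr1, with 0.99 and 0.37, were not among those called. With the slide as a random block Myc and Gadd45g passed, and 1 member rose without the cobalt 6 h array and 0 without the saline 6 h array. Of the 30, 12 stood above all later arrays in both pretreatments, where 11.9% of all genes did. Myc was among them, with 0.02 after cobalt and 0.06 after saline at 48 h.

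Genes of the heat shock and unfolded protein response had 8 of 32 members that rose (4.1% over all genes) and 24 that did not pass. Their median was 0.41. Their leaders were the stress factor Atf4, with 1.38 after cobalt and 0.85 after saline, the secreted Manf with 0.92 and 1.03, and the chaperone Hspa5 with 1.13 and 0.75. The median at 12 h was 0.52. No member passed with the slide as a random block or without either 6 h array, and 2 rose without the cobalt 48 h or the saline 48 h array.

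Among cytokines and chemokines, 6 of 28 rose, 1 fell (4.1% and 3.66% over all genes) and 21 did not pass. The median was 0.02. The decoy receptor Il1r2 had 1.5 after cobalt and 2.73 after saline, the monocyte attractant Ccl2 0.76 and 1.39, and the neutrophil attractant Cxcl1 0.92 and 0.97. Ccl22, which draws T cells, had 0.78 and 1.04 at 6 h and between -0.04 and 0.34 on the later arrays. The alarmin Il33 fell, with -0.90 after cobalt and -1.17 after saline (-1.04, adjusted p = 0.0046), and it stayed between -1.41 and -0.72 on the later arrays. Ccl22 and Il33 also passed with the slide as a random block. No probe of Il6, Tnf or Il10 was well above background in the hypoxia channel on both 6 h arrays at once. Without either 6 h array no member passed, and the median turned to -0.12 without the cobalt 6 h array.

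Matrix genes split at 6 h. Of 33 measured, 11 rose, 8 fell (4.1% and 3.66% over all genes) and 14 did not pass. The 11 were positive on both arrays, and 6 of the 8 were negative on both. The median of 0.33 stood at 0.32 on the cobalt array and at -0.30 on the saline array. It turned to -0.08 in the fit without the cobalt 6 h array. Among the members that rose, besides Lox, Ccn3 and Spp1, the growth factor Ccn2 had 1.74 after cobalt and 2.21 after saline (1.98 ± 0.11, adjusted p = 0.00112), the protease inhibitor Timp1 1.57 and 2.52, and the basement membrane collagen Col4a1 1.07 and 0.79. Among those that fell, Col1a2 had -1.05 after cobalt and -1.52 after saline (-1.28 ± 0.15), Fbn1 -0.60 and -1.28 (-0.94 ± 0.11), Fbln5 -1.54 and -0.79, and Col3a1 -0.41 and -1.48. Col15a1 had -1.08 and -1.77. With the slide as a random block 4 members passed, Lox, Ccn2 and Ccn3 among them, and none of the 8 that fell did. The counts were 4 higher and 1 lower without the cobalt 6 h array and 4 and 0 without the saline 6 h array, and 3 fell without the cobalt 48 h or the saline 48 h array.

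Smooth muscle genes rose in 7 of 12 cases (4.1% over all genes), with 0 lower and 5 not passing and a median of 1.11. Desmin (Des), the intermediate filament of muscle, had 2.45 after cobalt and 1.63 after saline (2.04 ± 0.13, adjusted p = 0.00146). Enteric actin Actg2 had 1.72 and 1.42, and the actin-binding calponin Cnn1 2.01 and 1.33. These levels were not particular to the first hours, since the list medians at 12, 24 and 48 h were 0.87, 1.13 and 1.15. The transcriptional coactivator Myocd was an exception in its time course, with 1.59 after cobalt and 0.47 after saline at 6 h and between 0.14 and 0.66 later. Myh11, the myosin of mature smooth muscle, had 0.69 after cobalt and -0.78 after saline and did not pass. Des and Actg2 passed with the slide as a random block, and 2 members rose without the cobalt 6 h array and 1 without the saline 6 h array. In bulk lung, a change in the number of cells of a type and a change in RNA per cell cannot be told apart.

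Interferon-stimulated genes had mostly negative ratios at 6 h. Of 27 measured, 25 had negative ratios on both arrays, where 26.1% of all genes did (19 of 27, against 12.8%, with median centring), and the list median of -0.83 was the lowest of the lists described here. The proteasome subunit Psmb8, with -1.02 after cobalt and -1.42 after saline, and the guanylate-binding Gbp5 fell (3.66% over all genes). The other 25 did not pass. The hypoxia signal of Gbp5 was not well above background on the cobalt array. The antiviral Mx2 had -1.03 and -2.49, and Gbp2 -1.08 and -1.68. Ratios of this list moved in opposite ways at later times, with array medians of -0.52 after cobalt and 1.20 after saline at 12 h, 0.40 and -0.74 at 24 h, and 0.29 and -0.63 at 48 h. In 13 of 27 genes the 6 h value was below all 3 later arrays in both pretreatments, a position that 8.88% of all genes took. When either the cobalt or the saline array of 12 h was left out, 15 members fell. With the slide as a random block, without the cobalt 6 h array or without the saline 6 h array none passed.

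Of 18 T and NK cell genes measured, 0 rose, 7 fell (4.1% and 3.66% over all genes) and 11 did not pass. The median was -0.31, and 8 members were positive after cobalt and negative after saline (21.2% over all genes). Granzyme Gzma had -1.57 after cobalt and -1.65 after saline, granzyme Gzmb -1.77 and -1.50, and the pore-forming perforin Prf1 -1.10 and -1.45 (-1.27, adjusted p = 0.0046). The NK receptor gene Klrd1 had -1.01 and -0.94. The second probe of Gzmb averaged -0.16. Cd3d, of the T cell receptor complex, had 1.15 after cobalt and -0.99 after saline. Prf1 passed with the slide as a random block, 2 members fell without the cobalt 6 h array and 0 without the saline 6 h array, and 4 without the cobalt 48 h or the saline 48 h array. The ratios of Gzma and Prf1 stayed below 0 on all later arrays.

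Endothelial genes gave 3 higher, 5 lower and 21 not passing of 29 (4.1% higher and 3.66% lower over all genes). The median was -0.22. Of the 3 higher, 2 were positive on both arrays. Plvap, of the diaphragms in fenestrae and caveolae, had -1.08 after cobalt and -1.75 after saline. The adhesion receptor Vcam1 had -0.91 and -1.36 at 6 h and between 0.003 and 0.89 on the later arrays, and the vessel-destabilizing ligand Angpt2 had -0.99 and -1.50 at 6 h and between -0.57 and 0.13 later. For Vcam1 and Angpt2 the 6 h values lay below all later ones, as they did for 3 of the 29 genes in both pretreatments, while 5 lay above (8.88% and 11.9% over all genes). Nitric oxide synthase Nos3 rose, with 1.25 and 0.82. Of 26 vasoactive genes, 2 rose and 3 fell (4.1% and 3.66% over all genes). The prostacyclin synthase Ptgis had 1.36 after cobalt and 1.30 after saline. The peptide receptor Vipr1 had -0.62 and -2.42, and the endothelin receptor Ednra -0.50 and -1.91. No gene of these lists passed with the slide as a random block. The endothelial counts were 0 higher and 1 lower without either 6 h array, with 8 lower without either 12 h array and 3 lower without either 24 h or 48 h array. The vasoactive counts were 1 higher and 1 lower without either 48 h array, 1 and 0 without the cobalt 6 h array and 0 and 0 without the saline 6 h array.

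Calls among surfactant and type I cell genes were few, as over all genes (7.76%). Of 13 surfactant and type II cell genes 0 passed, with a median of -0.08 that turned to 0.05 with median centring, and Sftpc, at 1.66 after cobalt and -1.80 after saline, was saturated. In limma, 2 of the 13 had an unadjusted p under 0.05. Of 12 type I cell genes the keratin Krt7 rose, and the water channel Aqp5 (-1.07 and -1.38) and Pdpn (-1.22 and -0.89) did not pass (adjusted p = 0.076 and adjusted p = 0.075). Of 13 genes of ion and water transport, 5 rose (4.1% over all genes), 4 of them positive on both arrays. The sodium pump subunit Atp1b1 had 0.40 after cobalt and 2.38 after saline, the water channel Aqp3 0.35 and 2.73, and Nedd4l, which removes sodium channels, 0.48 and 1.11. These genes were higher after saline than after cobalt, whereas Sgk1 (1.68 and 0.89) and Aqp1 (1.69 and -0.27) were higher after cobalt. That difference was not tested, and pretreatment, dye and slide cannot be told apart. No transport gene passed with the slide as a random block, and 1 rose without the cobalt 6 h array and 0 without the saline 6 h array.

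Of 16 clock genes measured, 3 rose (Nfil3, Cry1 and Per1), 0 fell (4.1% and 3.66% over all genes) and 13 did not pass. Opposite signs were found for 8, near the share over all genes (21.2% positive after cobalt and negative after saline, and 25.1% the reverse). Per2, a repressor of the clock, had -1.35 after cobalt and 2.51 after saline, and Cry1, another repressor, 0.36 and 2.12. The activator Bmal1 had 2.15 after cobalt and -0.52 after saline. Dbp, an output factor of the clock, had -2.13 and 0.65, Per3 -1.32 and 0.46, and Tef -1.05 and 0.50. The other 2 members called, Per1 (1.33 and 0.44) and Nfil3 (1.36 and 0.82), were positive on both arrays. Nr1d1 was low on both arrays, with -0.82 and -0.99, and did not pass. On the later arrays Per2 lay between -0.74 and -0.33 after cobalt and between 0.55 and 0.79 after saline. The clock hour of sampling was not given in the sources used here, and its part in these values was not tested. The list median of 0.16 turned to -0.03 without the saline 6 h array. No member passed with the slide as a random block, and none of Nfil3, Cry1 and Per1 stayed called without either 6 h array.

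**Figure D4:**
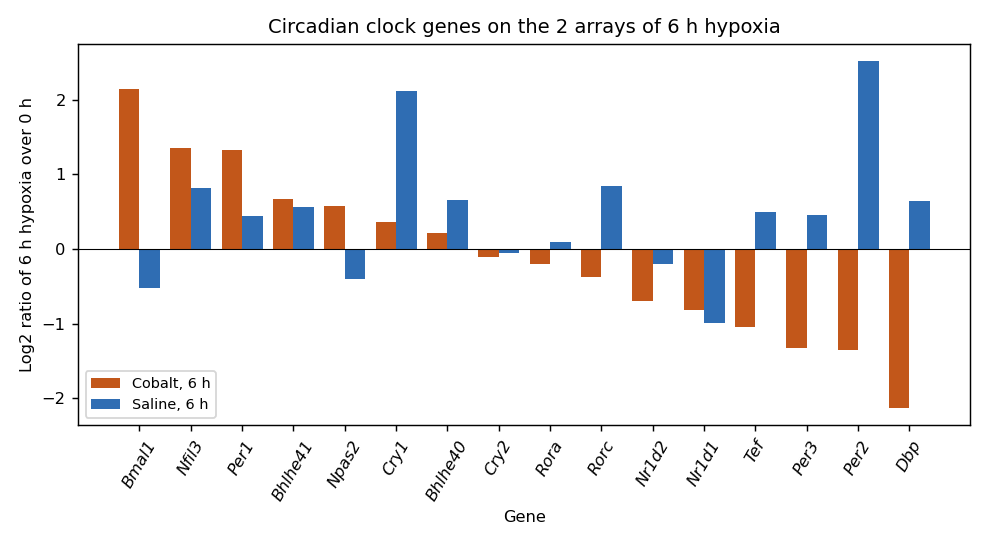
Log2 ratio of 6 h hypoxia over 0 h (vertical axis) for the 16 clock genes measured (horizontal axis), with the cobalt bar left of the saline bar for each gene. Bmal1 stands at 2.15 after cobalt and -0.52 after saline, and Per2 at -1.35 and 2.51, while Nr1d1 is below 0 on both arrays.

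Of the 32 genes past a log2 size of 1 with opposite signs at 6 h, 13 carry a symbol, Per2 among them. Elastin (Eln) had 2.22 after cobalt and -1.55 after saline, the fatty acid desaturase Scd 2.00 and -1.50, and the membrane-bound protease Mmp14 1.24 and -1.76. The interferon-induced Bst2 had 1.35 and -2.16 and the haematopoietic adaptor Hcls1 1.72 and -1.34. In the other direction stood the eosinophil ribonuclease Rnase3 with -1.09 and 1.73 and Gnat3 of taste cells with -1.05 and 1.29. Of the 20 genes higher after cobalt, 13 kept these signs on all 8 arrays, and of the 12 higher after saline, 8 did. Set against the mean of the 3 later arrays of the same slide, in which a constant offset of the slide drops out, Per2 differed between cobalt and saline by -2.63, Eln by 1.67, Rnase3 by -1.37 and Scd by 1.12. The corresponding value was 0.67 for Bst2 and 0.55 for Hcls1.

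Against the mean of 12, 24 and 48 h, 4 genes differed at 6 h (limma, 0.0166% of those tested, with 0.00829% higher and 0.00829% lower), where 2812 had an unadjusted p under 0.05, 1620 of them higher and 1192 lower. Gal was at 3.05 after cobalt and 3.45 after saline at 6 h, 2.33 and 2.30 at 12 h, 0.76 and 0.80 at 24 h and -0.40 and -0.17 at 48 h, a steady decline on both slides. Its 6 h value lay 2.31 ± 0.14 above the later mean (4.97-fold, adjusted p = 0.021). Ankrd1, a stretch-responsive nuclear protein of muscle, did the reverse. It had 0.59 after cobalt and -0.52 after saline at 6 h, 0.65 and -0.29 at 12 h, 2.63 and 1.30 at 24 h, and 3.59 and 2.86 at 48 h (-1.76 ± 0.15 against later, adjusted p = 0.0429). Ccn5, a matricellular relative of Ccn3, had 0.0087 after cobalt and -1.38 after saline at 6 h and between 0.13 and 1.96 later (-1.69, adjusted p = 0.0429). The fourth probe carries no symbol. Gal passed with the slide as a random block (adjusted p = 0.00528), where Ankrd1 (adjusted p = 0.0781) and Ccn5 (adjusted p = 0.0889) did not. Leaving out either array of 6, 24 or 48 h ended all 3 calls, with adjusted p between 0.102 and 0.232; leaving out the saline 12 h array ended those of Ankrd1 and Ccn5 (adjusted p = 0.0593), and without the cobalt 12 h array all 3 stood among 14 calls. The differences themselves ran between 2.03 and 2.54 for Gal, -1.96 and -1.67 for Ankrd1, and -1.85 and -1.53 for Ccn5 over 21 alternatives.

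Taken 1 duration at a time, 6 h differed from 48 h at 45 genes (0.187%), 18 higher (0.0746%) and 27 lower (0.112%). Against 12 h and against 24 h it differed at 0 genes (0%), with 1358 and 1708 genes at an unadjusted p under 0.05 in limma and smallest adjusted p-values of 0.651 and 0.0523. Without the cobalt 12 h array, 31 genes differed between 6 h and 12 h.

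Of the 45 genes, 32 carry a symbol, and they are described here after their values were seen. Of the matrix list, 3 of 33 members were lower and 1, Lox, was higher. On the lower side, Igsf10 had -2.64 after cobalt and -3.45 after saline at 6 h, against -0.07 and 0.46 at 48 h (-3.24 ± 0.38, adjusted p = 0.0451). Meox2 differed by -2.08. The small proteoglycan Lum had -1.06 and -0.45 at 6 h, against 1.09 and 1.16 at 48 h. Col1a2, with -1.05 and -1.52 at 6 h, stood at 0.38 and 0.61 at 48 h, and Fbn1, with -0.60 and -1.28, at 0.94 and 0.59. Pcolce, which aids the trimming of procollagen, differed by -1.67 and Col5a1 by -1.28. On both slides these genes were below the 0 h level at 6 h and near or above it at 48 h, except Col5a1 after cobalt, which was at 0.06 at 6 h. In the whole matrix list, 8 of 33 genes were below all later arrays at 6 h in both pretreatments (8.88% over all genes) and 3 were above (11.9%).

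On the higher side, Gal differed from 48 h by 3.53 (adjusted p = 0.00476). The intermediate filament gene Prph of peripheral neurons had 2.79 after cobalt and 1.96 after saline at 6 h, against 1.04 and -0.44 at 48 h. Cdkn1a differed by 1.85, proline dehydrogenase Prodh by 1.83, Orm1 by 1.61 and Lox by 1.30. The number of calls against 48 h was 0 without the cobalt 6 h array, 1 without the saline 6 h array, 2 without either 24 h array and 0 without either 48 h array. It was 95 without the cobalt 12 h array and 89 without the saline 12 h array.

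**Figure D5:**
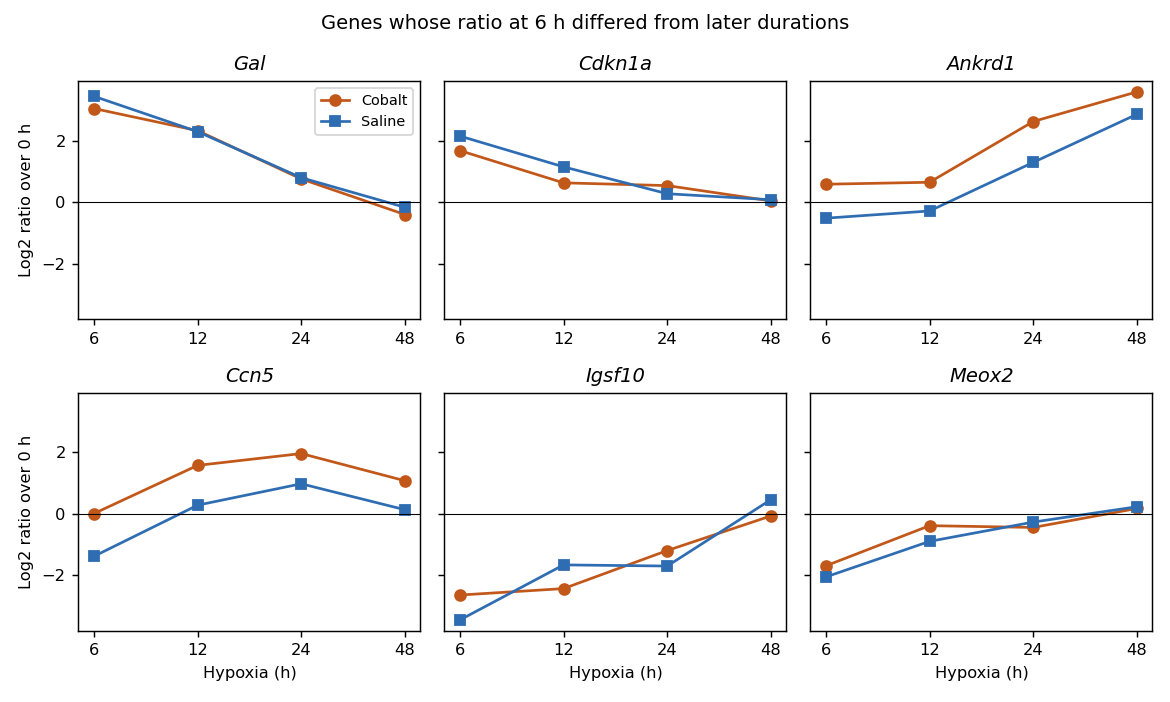
Log2 ratio of hypoxia over 0 h (vertical axis) at 6, 12, 24 and 48 h (horizontal axis) for 6 genes that differed between 6 h and later durations, with cobalt and saline arrays as separate lines. Gal and Cdkn1a are highest at 6 h and fall to between -0.40 and 0.08 at 48 h, while Ankrd1 reaches 3.59 after cobalt and 2.86 after saline at 48 h.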

How the data were processed

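Lung RNA was hybridised to 8 two-colour Agilent rat arrays, 1 per pretreatment and duration of hypoxia, and groups were taken from the sample labels. The deposited intensity values are mean and background signals of each spot, written by Feature Extraction 9.5.1.1 per the file headers. The deposited log10 ratio in the same files is the software's own ratio of red over green, per the file headers. The authors' series table holds log2 values, which were used as an alternative. From the mean and background intensity, normexp background correction (offset 50, which compresses the ratios of dim spots) and loess within arrays were applied with limma 3.58.1 in R 4.3.3. Control and outlier spots were left out, spots of a probe averaged and ratios turned to hypoxia over 0 h. Probes measured on at least 4 of 8 arrays in the hypoxia or 0 h channel were kept (28419 of 41012). Of the 41012 probes, 10796 were named through an accession, 6774 through a symbol and 3716 through a synonym in RefSeq's gene table, and 19726 kept the file's name. The probe with the highest mean signal stood for a gene.

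A linear model with the 4 durations and a pretreatment term was fitted over all 24118 genes, with 3 residual degrees of freedom and Benjamini-Hochberg adjustment at 0.05. Genes named were the 12 highest and 12 lowest called at 6 h with 1 sign on both arrays and all channels measured, those differing from later durations, the largest opposite ones and the largest bounds. Some genes that met these rules are not reported here. From each list described, 2 to 4 members with the lowest p were taken, and any further members given were picked after their values were seen. Members and lists were chosen with earlier results of these data known. Alternatives changed the background correction, normalization, probe filter, probe rule, fit and arrays used. In simulated data for 6 h against 0 h over 24118 genes, the fit recovered 94% of genes changed by a log2 size of 1 and 1.5% of those changed by 0.5. At a size of 1, 24 unchanged genes were called beside the 188 recovered. The simulated noise was independent between arrays and held no spread of the 0 h RNA. These shares hence do not measure recovery on the real arrays. Arrays give no counts, so their number limits precision. Figures were drawn with matplotlib 3.10.9 in Python 3.11.15. No per-sample column was left unmapped.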

Additional observations from a re-analysis of the deposited data

Results flagged for a closer look

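Values at 6 h that differed from later durations in the limma fit are given here as log2 differences. Against the mean of 12, 24 and 48 h, Gal differed by 2.31, Ankrd1 by -1.76 and Ccn5 by -1.69. Against 48 h, Gal differed by 3.53, Cdkn1a by 1.85, Orm1 by 1.61 and Lox by 1.3. In the same comparison Igsf10 differed by -3.24, Ankrd1 by -3.19, Meox2 by -2.08 and Gfra2 by -1.5. All these calls were lost when either 48 h array was left out.

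Other genes stood out because the 4 cobalt arrays all lay on one side of 0 and the 4 saline arrays all on the other. The cobalt minus saline difference at 6 h was 3.78 for Eln, 3.5 for Scd, 2.99 for Mmp14, 3.5 for Bst2 and 3.06 for Hcls1. It was -3.86 for Per2 and -2.83 for Rnase3. These differences were not tested, and pretreatment, slide, scan and dye cannot be told apart.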

How the results depend on the processing

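The count of 1871 genes at 6 h against 0 h depended on the fit. It was 948 with scaling between arrays after loess (53.4% higher), 80 with the slide as a random block (68.8% higher), 36 with the pretreatment term left out (75% higher) and 113 from the 6 h arrays alone (69% higher), against 52.9% higher in the fit reported, and between 57 and 2248 with 1 array left out. The 4 genes that differed from the later mean became 1 with no background subtraction, 2 with the software's ratio, 0 with median centring, 0 with scaling, 2 with the series table, 20 with no filter, 1 with the strict filter, 1 with the mean over probes, 0 without the pretreatment term and 1 with no variance trend, and between 0 and 14 with 1 array left out. Against 12 h the count stayed at 0 under the alternatives other than arrays left out, which gave between 0 and 31. Against 24 h, 0 became 2 with no background subtraction, 2 with no filter, 2 with the strict filter, 1 with the mean over probes, 1 with the slide block and 1 with no variance trend, and between 0 and 1 with 1 array left out. The 45 genes against 48 h became 22, 26, 6, 106, 74, 16, 1 and 76 with no background subtraction, median centring, scaling, no filter, the strict filter, the mean over probes, no pretreatment term and no variance trend, and between 0 and 95 with 1 array left out. The 229 genes past a log2 size of 1 with 1 sign became 758 with the software's ratio, 768 with the series table, 130 with median centring (45.4% higher, against 59% as reported) and 966 at a size of 0.58. The 32 opposite genes became 401, 407, 1577 and 288 in the same order, and with median centring 1572 of them were higher after saline. Of the genes picked by the stated rules, none reversed a called direction under the alternatives run. Further called members named above, such as Slc16a3, Nr4a3, Timp1 and Col1a2, and the other called genes were not followed one by one. The cause of these moves was not tested. No paired analysis within a group was possible, since each group had 1 array. The titles carry a letter, b on the saline arrays except that of 12 h and a on all others, which was not used. The slide entered as the pretreatment term and, as an alternative, as a random block. Ratios of dim spots are compressed, and 6 h rests on 2 arrays.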

Other observations

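The counts below are to be read beside all genes tested, of which 4.1% rose, 3.66% fell and 26.1% were negative on both 6 h arrays, and no call named here passed with the slide as a random block or without either 6 h array. Of 11 red cell genes measured, 9 had negative ratios on both arrays, with a median of -0.51. The globin gene Hbb-b1 had -0.76 after cobalt and -1.21 after saline, and Alas2, the first enzyme of haem synthesis in red cells, -0.83 and -0.75. Neither passed, and Tfrc was the 1 member that did. The array medians at 48 h were 2.18 after cobalt and -0.18 after saline. Of 34 cell cycle genes, 23 were negative on both arrays, with the transcription factor E2f1 the 1 member that fell, at -1.09 and -0.28. Their median of -0.22 became 0.32 without the saline 6 h array. Of 11 ciliated cell genes, 8 were negative after cobalt and positive after saline (25.1% over all genes), with 0 past the test in limma and 4 at an unadjusted p under 0.05. Of 18 antioxidant genes, 4 rose and 2 fell. The mitochondrial superoxide dismutase Sod2 had 0.43 after cobalt and 1.67 after saline, and catalase (Cat) -0.59 and -0.98. Of 13 macrophage genes, Spp1 and Lpl, which frees fatty acids from lipoproteins, rose and Adgre1, a surface marker, fell, with -1.08 after cobalt and -0.92 after saline.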
